A study of Homo sapiens with 8 samples.

Results

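Fibronectin (FN1) and 9 integrin subunit genes were examined in 143B osteosarcoma cells after transfection with a plasmid for NELL1 knockout. The genes were taken from the table by symbol as a ligand and its receptor family, a choice made with earlier results of these data known. They were FN1, the alpha subunits ITGA2, ITGA3, ITGA4, ITGA5, ITGA6 and ITGAV, and the beta subunits ITGB1, ITGB3 and ITGB5, which make 10 of 54174 gene symbols. All 10 had a value in all 8 libraries and all 10 were among the 9016 genes tested, so no filter on low values removed any of them. 143B is an established human bone tumour line. The control group was 143B of genotype control carrying the vector plasmid (4 libraries), and the other group was 143B of genotype NELL1 knockout carrying the NELL1KO plasmid (4 libraries). In both groups total RNA was taken 48 h after transient transfection. Whether a library stands for a mixed transfected population or for cells of a selected clone was not tested. Nothing in the labels says that the 4 replicates were separate cultures, so p-values measure the spread between these libraries, which may be technical.

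Fibronectin is a secreted dimeric glycoprotein that cells assemble into fibrils of the extracellular matrix. Integrins are transmembrane receptors made of 1 alpha and 1 beta subunit that couple the matrix to the actin cytoskeleton. The α5β1 receptor binds the arginine-glycine-aspartate motif of fibronectin and drives its assembly into fibrils. Receptors that contain αv, with β3 or β5, bind the same motif in fibronectin, vitronectin and other ligands. The α4β1 receptor binds an alternatively spliced segment of fibronectin. In partnership with β1, α3 and α6 are chiefly laminin receptors and α2 is chiefly a collagen receptor, so these alpha subunits share the β1 pool with the fibronectin receptors.

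The genes lie apart in the genome (RefSeq, GRCh38.p14). FN1 is at chr2:215360865-215436068, ITGAV at chr2:186590056-186680901, ITGA4 at chr2:181457205-181538940 and ITGA6 at chr2:172427336-172506459. ITGB5 is at chr3:124761948-124901418, ITGA2 at chr5:52989352-53094779, ITGB1 at chr10:32900318-32958230 and ITGA5 at chr12:54395261-54419266. ITGA3 is at chr17:50056110-50090481 and ITGB3 at chr17:47253827-47313743. Each value describes a whole gene, so spliced forms of fibronectin were not separated. Among genes that overlap a member in RefSeq, ATIC (which overlaps FN1) and CERKL (which overlaps ITGA4) had values in all 8 libraries. ATIC was 4.15 to 4.54 in control libraries and 4.63, 4.57, 4.57 and 5.52 in knockouts 1 to 4. Its change was opposite in sign to that of FN1, largest in knockout 4, and not past the threshold (limma adjusted p = 0.214). CERKL lay between -2.82 and -1.91 in every library. The library kit keeps strand, but whether the counting used it is not given in the sources used here.

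The 250 bases upstream of the annotated transcription start are shown for the fibronectin gene and the 2 subunit genes of its main receptor, because these 3 genes were lower together in the knockout libraries. They were read from the RefSeq promoter table of GRCh38.p14, which held windows for 8 of the 10 members (all but ITGB3 and ITGA3). FN1 is shown at chr2:215436069-215436318, ITGA5 at chr12:54419267-54419516 and the outermost ITGB1 window at chr10:32958231-32958480, each on the minus strand and written 5′ to 3′. Capitals mark matches to the cyclic AMP response element TGACGTCA, the AP-1 site TGANTCA, the CCAAT box or the TEAD site GGAATG on either strand.
FN1: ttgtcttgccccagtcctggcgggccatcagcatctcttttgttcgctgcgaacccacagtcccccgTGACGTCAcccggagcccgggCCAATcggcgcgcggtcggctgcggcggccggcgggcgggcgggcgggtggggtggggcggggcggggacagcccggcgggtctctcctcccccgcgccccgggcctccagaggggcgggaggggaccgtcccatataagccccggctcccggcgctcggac
ITGA5: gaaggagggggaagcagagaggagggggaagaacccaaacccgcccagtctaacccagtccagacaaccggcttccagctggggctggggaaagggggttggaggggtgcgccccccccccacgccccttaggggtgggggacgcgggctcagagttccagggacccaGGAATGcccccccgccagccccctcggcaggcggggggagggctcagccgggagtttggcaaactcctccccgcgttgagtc
ITGB1: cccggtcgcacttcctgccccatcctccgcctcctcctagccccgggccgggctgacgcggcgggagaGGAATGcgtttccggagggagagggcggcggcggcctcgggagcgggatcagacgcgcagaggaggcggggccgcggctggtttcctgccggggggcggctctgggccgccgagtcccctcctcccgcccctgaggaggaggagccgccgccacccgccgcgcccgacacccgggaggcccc
The FN1 window held 1 cyclic AMP response element, starting 183 bases before the transcription start, and 1 CCAAT box starting 162 bases before it. A cyclic AMP response element was present in 1.65% and a CCAAT box in 32% of all 35116 promoter windows of the same length. ITGA5 and ITGB1 each held 1 TEAD site, present in 11.9% of all windows, at 82 and 182 bases before the start. The AP-1 site, present in 6.57% of all windows, had no match in the windows of the 8 members. The GC box GGGCGG (not capitalised, 42.6% of all windows) occurred 6 times in the FN1 window, 1 time in that of ITGA5 and 3 times in that of ITGB1, where runs of overlapping GC boxes were counted match by match. These matches describe letters only.

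The libraries had the following features that touch the results. The deposited values are log2 values already forced to a common distribution, and no read totals are given, so the depth behind each value is unknown. NELL1 itself lay near the floor, at -6.97, -6.97, -4.53 and -5.00 in controls 1 to 4 and at -4.82, -5.87, blank and -6.96 in knockouts 1 to 4. Its transcript therefore does not check the labels. Knockouts 1 and 2 resembled each other closely (SD of the difference over tested genes 0.12), as did knockouts 3 and 4 (0.13), whereas a library of the first pair differed from one of the second by 0.46 to 0.50. A knockout and a control library differed by 0.36 to 0.45. Values are therefore given for each library and for the knockout pairs 1-2 and 3-4, which are not groups of the study. VIM, a mesenchymal marker, was 10.83 in control libraries and 10.40 in knockout libraries on average (limma adjusted p = 0.0425). SPARC, a bone matrix protein, moved the other way, from 5.50 to 6.12 (limma adjusted p = 0.0294). The osteoblast regulator RUNX2 was 0.20 and 0.25, below the filter of the test. Among the bone and mesenchymal markers COL1A2 was near the floor or blank in every library. The summed level of the 4 epithelial markers was 2.45 to 2.79 (log2) in control libraries and 1.90 to 2.81 in knockout libraries. EPCAM made up nearly all of it. The summed level of the 3 endothelial markers was -4.21 to -2.79 and -3.48 to -2.96. The 3 haematopoietic markers summed to 0.08 to 0.26 in control libraries and -0.17 to 1.96 in knockout libraries, with PTPRC blank throughout. That sum was nearly all LCP1, at 1.951, 1.665, -0.17 and -0.03 in knockouts 1 to 4. CD53 was -4.835 in knockout 1 and blank in the other knockouts. The part of these markers in the results was not tested.

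Fibronectin, both subunits of α5β1, and the αv and β5 subunits were lower in the knockout libraries. Of the 10 members, 6 fell at a Benjamini-Hochberg adjusted p-value under 0.05 in limma (FN1, ITGA5, ITGB1, ITGAV, ITGB5 and ITGA3), none rose and 4 did not pass (ITGB3, ITGA4, ITGA6 and ITGA2). The count was 2 without control 1, 2 or 4, 3 without knockout 2, and 1 (ITGA5) with each knockout pair averaged. Among all 9016 tested genes the test called 13.1% in either direction and 6.1% as lower. For the same 6 members all 4 knockout values lay below all 4 control values, a pattern met by 10.4% of all tested genes. The median log2 change over the 10 members was -0.45, against 0.01 over all tested genes. In bulk RNA, fewer cells expressing a gene and less RNA per cell cannot be told apart.

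**Figure D1:**
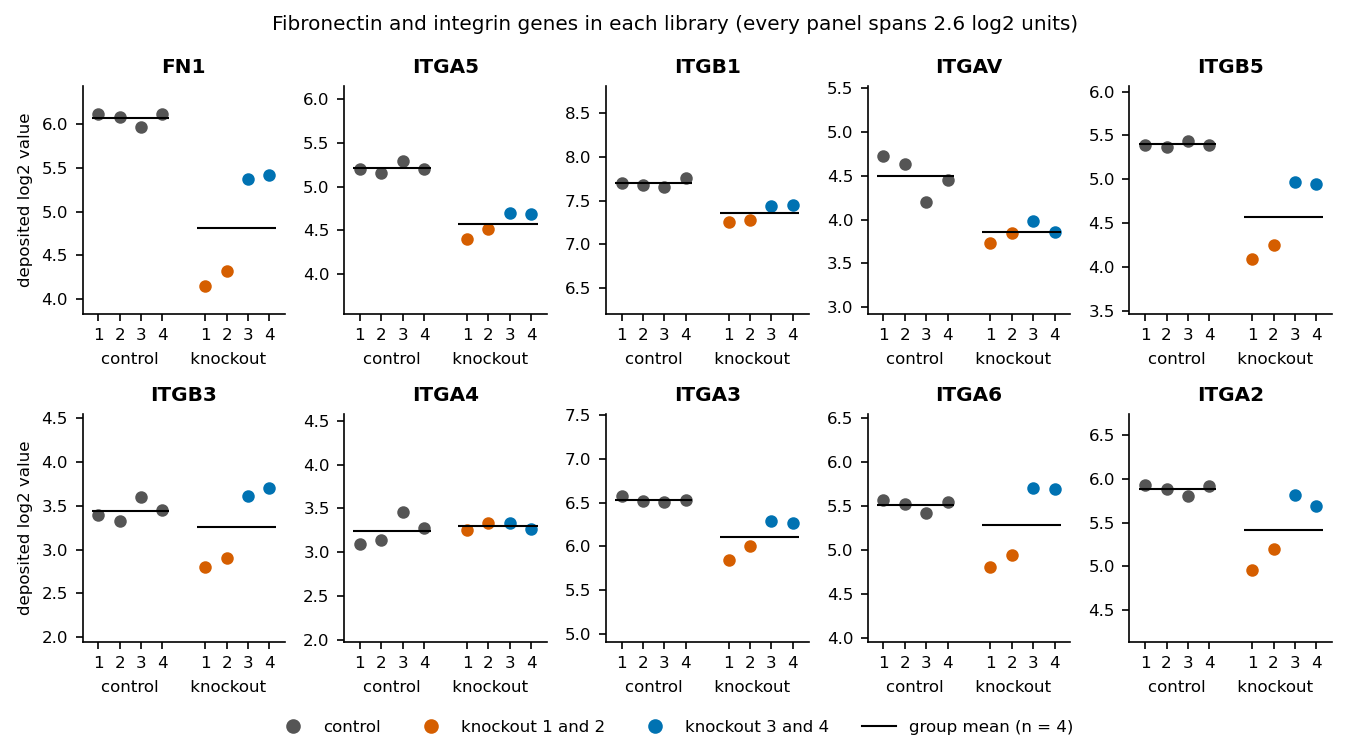
Deposited log2 value of each gene (vertical axis) in control libraries 1 to 4 (grey) and knockout libraries 1 to 4 (orange for 1 and 2, blue for 3 and 4), with the mean of each group as a line and the same span of values in every panel. FN1 lies between 5.97 and 6.12 in control libraries and between 4.15 and 5.42 in knockout libraries, and ITGB3 and ITGA6 have knockouts on either side of the controls.

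FN1, the ligand, showed the largest difference among the 10 members. Its deposited log2 value was 6.12, 6.08, 5.97 and 6.12 in controls 1 to 4, and 4.15, 4.33, 5.37 and 5.42 in knockouts 1 to 4. The controls were tightly grouped, every knockout lay below every control, and knockouts 1 and 2 lay more than 1 log2 unit below knockouts 3 and 4 on average (difference of the pair means 1.16). Its mean of 6.07 ± 0.07 fell to 4.82 ± 0.67 (SD, n = 4 each), a log2 change of -1.26 ± 0.29 (SE; limma adjusted p = 0.0261), which leaves 41.9% of the control level. An exact two-sided permutation test gave p = 0.0286, the smallest that 4 against 4 allows. Replicates 1 and 2 differed by -1.86, and replicates 3 and 4 by -0.65. The call was lost without control 1, 2 or 4 or without knockout 2 (limma adjusted p = 0.0514 to 0.079), and with each knockout pair averaged (0.0774).

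Both subunit genes of the α5β1 receptor fell. ITGA5, which encodes the α5 subunit that gives this receptor its fibronectin specificity, was 5.21, 5.16, 5.29 and 5.20 in control libraries and 4.40, 4.51, 4.70 and 4.69 in knockout libraries. All 4 knockouts, at 4.40 to 4.70, lay below all 4 controls. The log2 change was -0.64 ± 0.08 (SE; 95% confidence interval -0.83 to -0.45; limma adjusted p = 0.00409), leaving 64.3% of the control level. ITGA5 was the only member that stayed under 0.05 in all 17 alternative fits, with limma adjusted p = 0.0387 when each knockout pair was averaged, a fit that called 1.2% of all tested genes. Its change was -0.72 for replicates 1 and 2, against -0.55 for replicates 3 and 4.

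ITGB1 encodes β1, the common partner of α2, α3, α4, α5 and α6. It was 7.70, 7.68, 7.65 and 7.76 in control libraries and 7.26, 7.28, 7.44 and 7.45 in knockout libraries, again without overlap. Its fall was the smallest of the 6, -0.34 ± 0.07 (SE; limma adjusted p = 0.0171), and left 78.9% of the control level. The call was lost without control 1, 2 or 4 (limma adjusted p = 0.0573 to 0.0686) and with averaged knockout pairs (0.113). Within libraries ITGA5 minus ITGB1 was -2.48 ± 0.09 for the controls and -2.78 ± 0.05 for the knockouts (SD, n = 4 per group), with all 4 knockouts beyond all controls.

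Of the genes for αv receptors, ITGAV and ITGB5 fell. ITGAV, the alpha subunit shared by the αvβ3 and αvβ5 receptors, was 4.72, 4.63, 4.20 and 4.45 in control libraries and 3.73, 3.85, 3.99 and 3.86 in knockout libraries. The controls were more spread than for any other member and the groups still did not overlap. The change was -0.65 ± 0.12 (SE; limma adjusted p = 0.0113), lost only with averaged knockout pairs (0.0863), and left 63.8% of the control level. ITGB5, which pairs with αv, was 5.39, 5.37, 5.44 and 5.39 in control libraries and 4.09, 4.25, 4.97 and 4.95 in knockout libraries. It fell by 0.83 ± 0.20 (SE; limma adjusted p = 0.0306) to 56.2% of the control level. Knockouts 1 and 2 stood lowest, with a change of -1.21 for replicates 1 and 2, against -0.46 for replicates 3 and 4. The ITGB5 call was lost without any 1 of the 4 controls or without knockout 2 (limma adjusted p = 0.0566 to 0.086), with averaged knockout pairs (0.0876) and with no filter on low values (0.0513).

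ITGB3, the other beta partner of αv, did not pass the test. It was 3.39, 3.33, 3.60 and 3.45 in control libraries and 2.80, 2.90, 3.62 and 3.70 in knockout libraries. Knockouts 1 and 2 lay below all controls and knockouts 3 and 4 lay above all of them. The log2 change over 8 libraries was -0.19 with a 95% confidence interval of -0.66 to 0.29 (limma adjusted p = 0.589). This interval does not exclude a fall of the size seen for ITGAV.

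ITGA4, whose β1 receptor binds the spliced segment of fibronectin, was the only member with a mean above the controls. It was 3.10, 3.14, 3.46 and 3.28 in control libraries and 3.26, 3.33, 3.34 and 3.26 in knockout libraries, with all knockouts inside the control range. The log2 difference was 0.05, with a 95% confidence interval of -0.15 to 0.25 (limma adjusted p = 0.732). A change of the size seen for ITGA5 lies outside that interval.

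Of the laminin and collagen receptor subunits, 1 passed and 2 did not. ITGA3, a laminin receptor subunit, was 6.58, 6.52, 6.51 and 6.53 in control libraries and 5.85, 6.0, 6.30 and 6.26 in knockout libraries, with no overlap. It fell by 0.43 ± 0.10 (SE; limma adjusted p = 0.0316) to 74.2% of the control level. With the replicate number as a block, a fit that called 10.2% of all tested genes, the limma adjusted p was 0.0584, so the ITGA3 call was lost there. It was also lost without control 1, 2 or 4 or knockout 2 (0.0676 to 0.096), with averaged pairs (0.112) and with no filter (0.0528). In replicates 3 and 4 alone the ITGA3 call was lost too (limma adjusted p = 0.0566). ITGA6, the other laminin receptor subunit, was 5.57, 5.53, 5.42 and 5.55 in control libraries and 4.80, 4.94, 5.71 and 5.69 in knockout libraries. As for ITGB3, knockouts 1 and 2 lay below all controls and knockouts 3 and 4 above them, and the change of -0.23 did not pass (95% confidence interval -0.71 to 0.24; limma adjusted p = 0.501). ITGA2, the collagen receptor subunit, was 5.93, 5.89, 5.81 and 5.92 in control libraries and 4.96, 5.20, 5.81 and 5.69 in knockout libraries. Of the knockouts, 3 of 4 lay below all controls and knockout 3 reached the control range. The ITGA2 change was -0.47 ± 0.18 (SE; 95% confidence interval -0.87 to -0.07; limma adjusted p = 0.116).

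**Figure D2:**
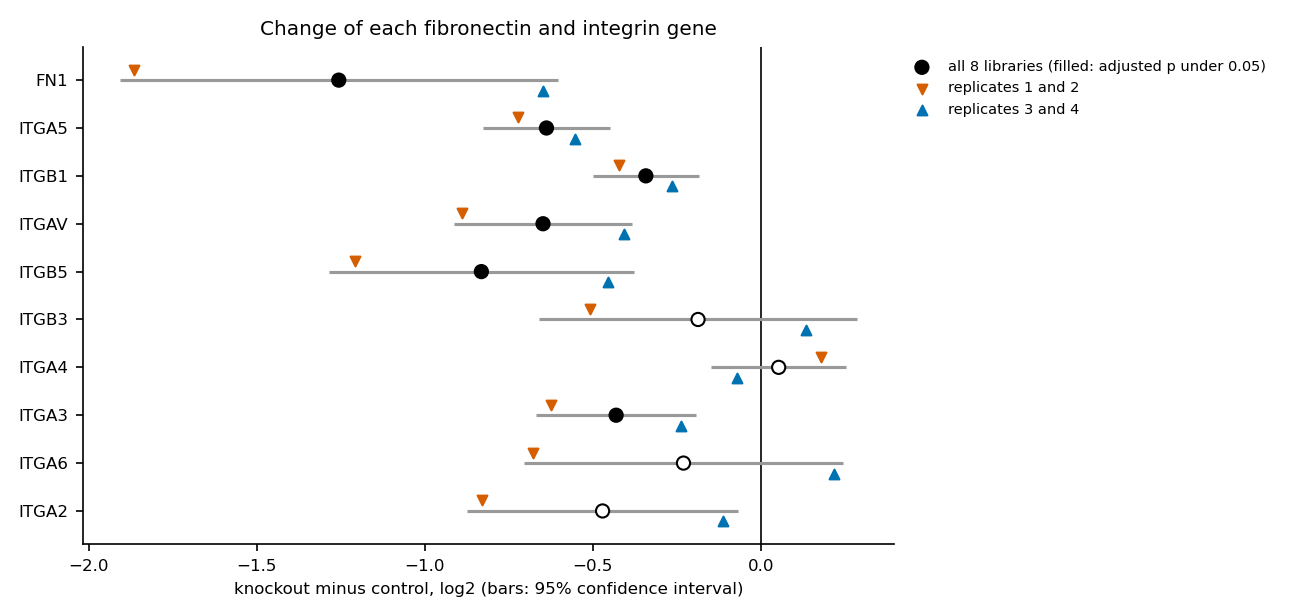
Knockout minus control on the log2 scale (horizontal axis) for each gene, as the limma estimate over 8 libraries with its 95% confidence interval (circles, filled where the adjusted p is under 0.05), and as the difference of means within replicates 1 and 2 (orange) and within replicates 3 and 4 (blue). FN1 has the lowest estimate at -1.26, and the blue marker lies above 0 for ITGB3 (0.13) and ITGA6 (0.22).

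The 10 genes formed 3 patterns by their values in single libraries. FN1, ITGA5, ITGB1, ITGAV, ITGB5 and ITGA3 were lower in every knockout library than in any control. ITGA2, ITGA6 and ITGB3 were lower than all controls in knockouts 1 and 2, while ITGA6 and ITGB3 exceeded all controls in knockouts 3 and 4. ITGA4 stayed within the control range. Knockouts 1 and 2 had a lower mean than knockouts 3 and 4 for all 10 members, by 0.003 for ITGA4 and by 0.13 (ITGAV) to 1.16 (FN1) for the others, against 48.7% of all tested genes. The median change of the 10 members was -0.70 for replicates 1 and 2, but -0.25 for replicates 3 and 4, against 0.03 and -0.002 over all tested genes. Whether the change differed between those sets was not tested.

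Whether members changed by unequal amounts was tested on their differences within a library, in 5 comparisons by exact two-sided permutation tests over the 8 libraries. FN1 minus ITGB1 was -1.63 ± 0.04 for the controls and -2.54 ± 0.57 for the knockouts (SD, n = 4 per group), beyond the controls in all 4 knockouts. For this difference and for that between ITGA5 and ITGB1 the exact permutation p was 0.0286, and 0.0714 after adjustment over the 5 comparisons. Neither passed, but both p-values were the smallest that 4 against 4 allows. The adjusted test therefore cannot decide whether these changes were unequal. FN1 minus ITGA5 was 0.86 ± 0.12 in control libraries and 0.24 ± 0.53 in knockout libraries, with only knockouts 1 and 2 below the control range (exact permutation p = 0.0857, adjusted 0.143). ITGA5 minus ITGAV was 0.71 ± 0.28 and 0.72 ± 0.08 (exact permutation p = 1), where the changes of the separate genes were -0.64 and -0.65. ITGAV minus ITGB5 was -0.89 ± 0.26 and -0.71 ± 0.38 (exact permutation p = 0.457, adjusted 0.571).

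On the deposited scale ITGB1 had the highest level of the 10 in the controls (7.70), followed by ITGA3 (6.53), FN1 (6.07), ITGA2 (5.89), ITGA6 (5.52), ITGB5 (5.40), ITGA5 (5.21), ITGAV (4.50), ITGB3 (3.44) and ITGA4 (3.25). The control ranges of ITGA6 and ITGB5 overlapped, and ITGA6 was the higher in 3 of 4 controls. Those of ITGB3 and ITGA4 overlapped as well, although ITGB3 was the higher in each of the 4 controls. FN1 was at percentile 96.1 of the genes with a value in control libraries and at 89.5 in knockout libraries. In the knockouts the mean of FN1 (4.82) was below those of ITGA2 (5.41) and ITGA6 (5.29), which it exceeded in the controls. Whether the values are per transcript length is not stated, so this order holds for the deposited scale only.

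The 8 libraries also show how alike the profiles were, as a description over libraries that fall into close pairs. The Pearson correlation with FN1 over the 8 libraries was 0.995 for ITGB5, 0.992 for ITGA3, 0.966 for ITGB1, 0.965 for ITGA2, 0.937 for ITGA5, 0.847 for ITGAV, 0.815 for ITGA6, 0.748 for ITGB3 and -0.23 for ITGA4. Of all tested genes, 0.0444% had a higher correlation with FN1 than ITGB5 and 2.64% a higher one than ITGA5. The 5 tested genes with the highest correlation were ITM2C (0.997), BHLHE40 (0.996), PNMA1 (0.995), RAC1 (0.995) and ITGB5, so ITGB5 was the fifth in order. BHLHE40, a transcriptional repressor, was 5.20 to 5.21 in control libraries and 3.97 to 4.76 in knockout libraries. RAC1, a small GTPase of the actin cytoskeleton, was 6.32 to 6.33 and 5.83 to 6.19. The 3 genes with the lowest correlation were CISD1 (-0.994), MPC1 (-0.992) and GNPDA1 (-0.992), all higher in every knockout library than in any control. MPC1, a subunit of the mitochondrial pyruvate carrier, was 1.64 to 1.81 in control libraries and 1.98 to 2.67 in knockout libraries. All of these follow the same order of libraries, with knockouts 1 and 2 farthest from the controls.

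**Figure D3:**
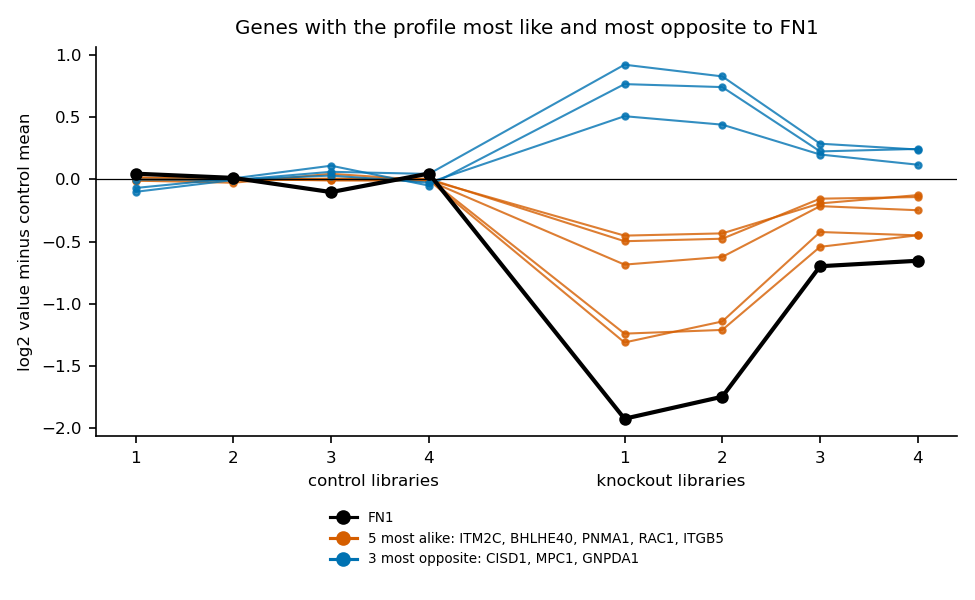
Log2 value minus the mean of the controls (vertical axis) in each control and knockout library (horizontal axis) for FN1 (black), the 5 genes with the most similar profile (orange) and the 3 with the most opposite one (blue). Lines join the points of a gene and imply no order of the replicates. All 9 genes lie farthest from 0 in knockouts 1 and 2.

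The other integrin subunits were mostly too low to test. Of 17, only ITGA1 and ITGA10 passed the filter on low values, 1 (ITGA8) was blank throughout, and the others had a mean under 1 or a blank. ITGA1, a collagen receptor subunit that pairs with β1, was 1.96 to 2.14 in control libraries and 1.22 to 1.64 in knockout libraries. It fell by 0.63 ± 0.11 (SE; limma adjusted p = 0.0102), and with averaged knockout pairs the limma adjusted p was 0.0662. ITGA10 was 2.80 ± 0.56 in control libraries and 2.47 ± 0.61 in knockout libraries (SD, n = 4 each; limma adjusted p = 0.577). ITGB8, another beta partner of αv, was -2.01 to -1.62 in the controls, -3.69 and -3.46 in knockouts 1 and 2 and -1.02 and -1.22 in knockouts 3 and 4, the order of libraries also seen for ITGB3. ITGB4, the beta partner of α6 in hemidesmosomes, was 1.14 ± 0.14 in the controls, -0.41 and 0.03 in knockouts 1 and 2, and 0.95 and 1.15 in knockouts 3 and 4. Both were below the filter and had no test in the fit over 9016 genes. With no filter on low values neither passed (limma adjusted p = 0.223 for ITGB4 and 0.625 for ITGB8).

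Genes for proteins that act on or beside these integrins moved in both directions. Over 6 lists of adhesion genes, written with earlier results of these data known, 49 of 79 genes were tested and 8 were called (16.3%, against 13.1% of all tested genes), 6 lower and 2 higher. The median log2 change of the 49 was -0.09. None of the 49 was called with averaged knockout pairs, where 14 had an unadjusted p under 0.05 in limma and the adjusted p of the 8 was 0.0662 to 0.176.

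Among 9 tested genes for integrin activation and linkage to actin, 1 fell. FERMT1 (kindlin-1, an activator that binds beta tails) was 2.03 to 2.18 in control libraries and 1.31 to 1.84 in knockout libraries, a change of -0.53 ± 0.12 (SE; limma adjusted p = 0.0248), lost without control 1, 2 or 4 or knockout 3. Its homologue FERMT2 was 5.16 ± 0.05 and 5.23 ± 0.05 (SD, n = 4 each; limma adjusted p = 0.504). TLN1, the main talin, had a mean of 5.44 in the controls, 4.92 and 5.08 in knockouts 1 and 2 and 5.92 in knockouts 3 and 4 (limma adjusted p = 0.963 over all 8). On the list of integrin tail binders and inactivators, 9 genes were tested and 1 was called. This was FBLIM1 (migfilin, a filamin-binding adaptor), which fell by 0.51 ± 0.10 (SE; limma adjusted p = 0.0155). The call was lost without control 2 or 4. TNS3, a tensin of fibrillar adhesions, was 3.20 ± 0.21 and 2.43 ± 0.64 (SD, n = 4 each; limma adjusted p = 0.115).

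Of 14 tested membrane partners and trafficking genes, 2 rose and 1 fell. CAV1 (caveolin-1, the caveolar scaffold) was 5.35 to 5.99 in control libraries and 6.12 to 6.35 in knockout libraries, a rise of 0.60 ± 0.14 (SE; limma adjusted p = 0.0268). TSPAN4, a tetraspanin, rose by 0.59 ± 0.15 (SE; limma adjusted p = 0.0332). CD47, a partner of αvβ3, fell by 0.34 ± 0.09 (SE; limma adjusted p = 0.044), with 0.0554 under the replicate block. The CAV1 and TSPAN4 calls were lost without control 1, 2 or 4 or knockout 3 or 4, and the CD47 call was lost without any library but control 3. Of 6 tested fibronectin binding partners, 2 fell. SDC4, a heparan sulphate co-receptor for fibronectin, was 5.20 to 5.81 in control libraries and 4.73 to 4.90 in knockout libraries, a change of -0.76 ± 0.14 (SE; limma adjusted p = 0.011) that held in all 8 fits without 1 library. PLAUR, the urokinase receptor, fell by 0.45 ± 0.12 (SE; limma adjusted p = 0.0441), a call held in 2 of those 8 fits (without knockout 3 or 4).

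None of the 9 tested genes for other ligands of these integrins passed in limma without a block, although 3 of them (TGFBI, TNC and LAMA5, all lower) had an unadjusted p under 0.05. TNC (tenascin-C) was 3.81 ± 0.30 in control libraries and 3.10 ± 0.48 in knockout libraries (SD, n = 4 each; limma adjusted p = 0.0919), and passed with the replicate block (0.0312). LAMA5, a laminin chain bound by α3 and α6 receptors, was 2.00 ± 0.18 and 1.26 ± 0.65 (SD, n = 4 each; limma adjusted p = 0.124). SPP1 (osteopontin, a ligand of αv receptors) was 3.75 ± 0.76 and 4.20 ± 0.52 (SD, n = 4 each; limma adjusted p = 0.477). The vitronectin gene VTN had a value in only 2 libraries.

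**Figure D4:**
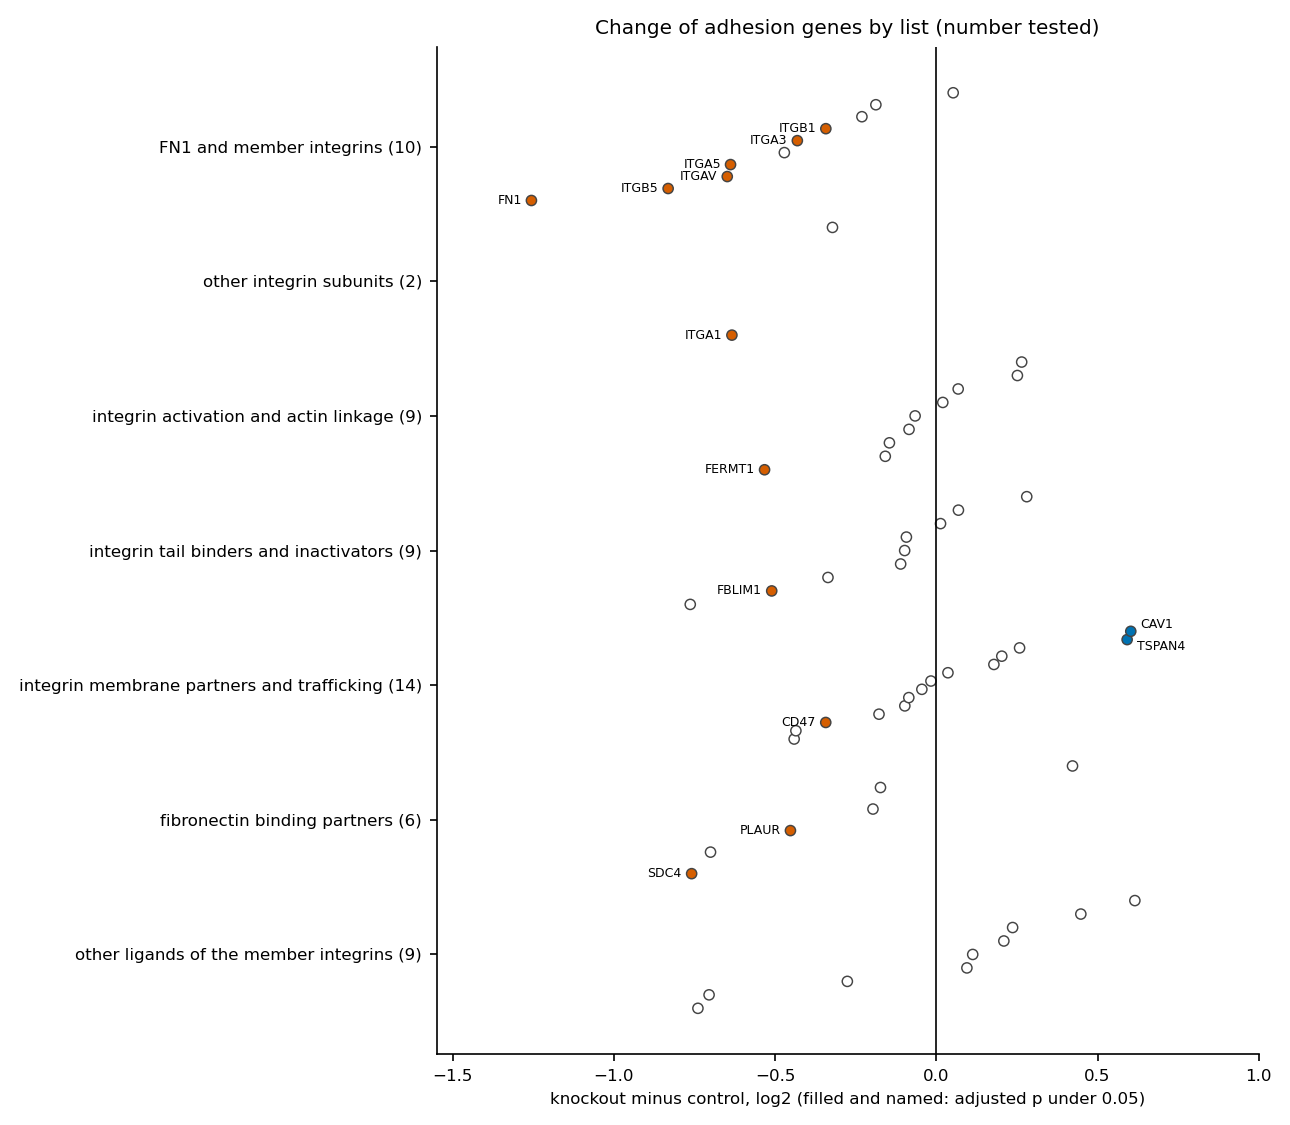
Knockout minus control on the log2 scale (horizontal axis) for every tested gene, in rows by list with the number tested, where filled and named points passed the adjusted p threshold (orange lower, blue higher). FN1 at -1.26 is the lowest of all points, and the only called genes above 0 are CAV1 and TSPAN4.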

How the data were processed

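RNA-seq values of 8 libraries were used, 4 per group, grouped by their titles. Per the file header and the values, the authors deposited 1 log2 value per gene symbol and library, quantile normalized between libraries: every library had the same mean, median, lowest and highest value. Per the submitters' processing notes, bcl2fastq, Partek 7.0 and GRCh38 were used. The aligner, the counting rule, the annotation and the unit before the logarithm are not given in the sources used here. Among the 500 lowest values of a library, lower values fell on genes with longer transcripts (Spearman's rho across genes -0.44 to -0.35), as per-length values would. Such values show changes relative to other genes only. Depth is unknown and no counting error can be given, so precision rests on the spread between libraries.

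Blank cells were treated as missing. limma 3.58.1 in R 4.3.3 was fitted to the 9016 genes with 8 values whose mean was 1 or more, for knockout minus control without covariates. P-values were adjusted over all 9016 genes (Benjamini-Hochberg) and called under 0.05. Single differences were compared by exact permutation tests in SciPy 1.17.1. The fit was tested on simulated data in which libraries varied independently, unlike the close knockout pairs seen here. That run therefore does not check how the fit behaves with such pairs. The members and lists were chosen with earlier results of these data known. Named genes were all members, NELL1, up to 4 called genes of each list by p-value and the 5 most and 3 least correlated with FN1. Other named genes (among them TLN1, FERMT2, TNS3, ITGA10, ITGB4, ITGB8, TNC, LAMA5, TGFBI, SPP1, VTN, the cell type markers and the overlapping genes) were chosen after their values were seen. Alternatives were other filters, scaling, a pseudocount, a variance trend, a replicate block, averaged knockout pairs, subsets of replicates and leaving out each library. Same-numbered control and knockout libraries deviated together from their group means (correlation over genes 0.20 to 0.29 in 4 of 4 cases). Libraries with different numbers were not compared in this way, and some libraries of a group resembled each other closely. These correlations therefore cannot decide whether the numbers mark pairs, and the labels do not say what they mark. Unless a block is named, the limma fits and the permutation tests were unpaired. The numbers enter as pairs only in the fit with the replicate block.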

Additional observations from a re-analysis of the deposited data

Results flagged for a closer look

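Of 51 groups of 4 values checked for 26 named genes, 1 held a library far from its group, and chance alone marks about 1 in 20 such groups. RAC1 in control 1 was 6.32, the lowest of controls that otherwise lay at 6.33, a gap of 87.6% of a range of only 0.01 log2 units. Among the 10 fibronectin and integrin genes no library stood apart from its group by this measure.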

How the results depend on the processing

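No direction of a called result reversed in the 17 alternatives. With each knockout pair averaged, limma gave FN1 -1.26 (adjusted p = 0.0774), 1 member call against 6, 0 list calls against 8 (14 list genes had an unadjusted p under 0.05) and 108 calls over all genes against 1183. Replicates 1 and 2 alone gave 10 member calls (ITGA4 higher, the others lower), 32 list calls and 5380 calls over all genes; replicates 3 and 4 alone gave 5, 20 and 2987. With no filter on low values, 5 of the 49 list genes were called. Requiring a mean of 3 left 729 calls over all genes, with fewer genes tested. Leaving out 1 library gave an FN1 change of -1.46 to -1.03, 2 to 6 member calls (2 without control 1, 2 or 4, and 3 without knockout 2), 2 to 9 list calls (2 to 5 without control 1, 2 or 4 or knockout 3 or 4) and 391 to 1353 calls over all genes (391 to 716 without control 1, 2 or 4 or knockout 3). The cause was not tested. The replicate block left FN1 at -1.26 (adjusted p = 0.0383), 5 member calls, 8 list calls and 924 calls over all genes, and apart from ITGA3, CD47 and TNC it changed no call among members and list genes. Depth is unknown, so no limit of detection can be given for the low subunits such as ITGB4 and ITGB8.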
